A study of Mus musculus with 6 samples.

Results

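The 43 genes described here encode cell adhesion molecules: 26 integrin chains, picked by their symbols, and 17 further genes of the immunoglobulin family, the cadherins and the syndecans, picked by name. All 43 had a row among the 24346 gene symbols of the deposited table. Libraries were made from primary chondrocytes of the joint surface cartilage of ICR mice at postnatal day 4. In 3 libraries the cells had been stimulated with semaphorin 4D (Sema4D), which signals through plexin-B receptors, and 3 control libraries came from cells without it. Dose, duration and control medium are not given in the sources used here, and the labels do not say whether the replicates were separate cultures or mice, so the p-values rest on a spread that may be technical.

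Integrins are pairs of an alpha and a beta chain that tie the cell to its surroundings, and the pairing sets the ligand: collagens, laminins, proteins with an arginine-glycine-aspartate (RGD) sequence such as fibronectin, or counter-receptors on other cells. Beta1 integrins are among the receptors through which chondrocytes bind their pericellular matrix. ICAM-type and VCAM-type immunoglobulin proteins are the surface ligands that leukocyte integrins grip, cadherins join like cells to each other, and syndecans are membrane proteoglycans that bind matrix proteins and growth factors through heparan sulphate.

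The unit was FPKM, fragments scaled to transcript length and library size, so levels can be set side by side between genes. The steps between low values put the depth at about 1.41e+07 to 1.67e+07 fragments in the Sema4D and 1.25e+07 to 1.62e+07 in the control libraries. Libraries of 1 group correlated at 0.983 to 0.991 and libraries of different groups at 0.935 to 0.942 (Pearson's r over genes, which are not replicates). All 10 listed chondrocyte markers were expressed, with a summed level of 12260 to 13230 FPKM in Sema4D and 15420 to 16540 FPKM in control libraries. All 10 were lower with Sema4D by the threshold given below, against 22.2% of all tested genes. The 8 listed fibroblast and synovium markers were also abundant, at 5235 to 5448 FPKM in Sema4D and 5161 to 5524 FPKM in control libraries. Of the 7 tested among them, Pdgfra and Lum rose, Thy1 and Dpt fell, and Col1a1, Col3a1 and Prg4 did not pass. These shares, 28.6% higher and 28.6% lower, were near the 24.5% and 22.2% of all tested genes. The part of such cells in the adhesion gene values was not tested. In bulk RNA, fewer cells of a type and less RNA per cell cannot be told apart.

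With Sema4D the integrin ligand genes Icam1 and Vcam1 and 2 of 4 syndecans were higher, all 4 collagen-binding and 3 of 4 laminin-binding integrin chains were lower, and the RGD-binding chains were divided. By the threshold given below, 24.5% of all tested genes were higher and 22.2% were lower. Among the laminin-binding falls, that of Itgb4 was narrow and was lost in some refits. Icam1 went furthest, to 284 ± 13.6 FPKM in Sema4D libraries, against 9.67 ± 0.244 FPKM in control libraries (mean ± SD, n = 3 per group here and below). Vcam1, Sdc4, Alcam, Sdc1 and the integrin chain gene Itga9 also rose by over 1.5-fold, and the laminin receptor chain gene Itga6 and Mcam fell by over 1.5-fold. Fold changes are on the log2(FPKM + 1) scale, which understates the change of low genes. By the ratio of mean FPKM, Itga8 (1.63) and Itgb8 (1.61) also rose by over 1.5-fold, and Itga11 and Itga2 also fell by over 1.5-fold.

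The 29 adhesion genes whose mean reached 1 FPKM were tested, within a limma fit across all 11603 such genes, and an adjusted p under 0.05 (Benjamini-Hochberg) was the threshold. Of the 29, 12 rose (41.4%) and 11 fell (37.9%), against 24.5% of all tested genes called higher, 22.2% called lower and 46.7% called either way. Over 1.5-fold, 6 rose (20.7%) and 2 fell (6.9%), against 6.66% and 3.71% of all tested genes. The Sema4D and control ranges did not overlap for 23 of the 29 (79.3%), against 56.6% of all tested genes. The median log2 fold change was 0.04 for the 29 and 0.01 for all tested genes. By part, 4 of the 17 tested integrin chains rose (23.5%) and 8 fell (47.1%). Of the 12 other tested adhesion genes 8 rose (66.7%) and 3 fell (25%). The genes were chosen with earlier results of these data known, so these shares are a description and carry no test. Itga8, at 0.792 FPKM in control libraries, and Itgb4, at 0.883 FPKM in Sema4D libraries, passed the minimum only through the group where each was higher. The other 14 adhesion genes lay under it and had no test here.

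**Figure D1:**
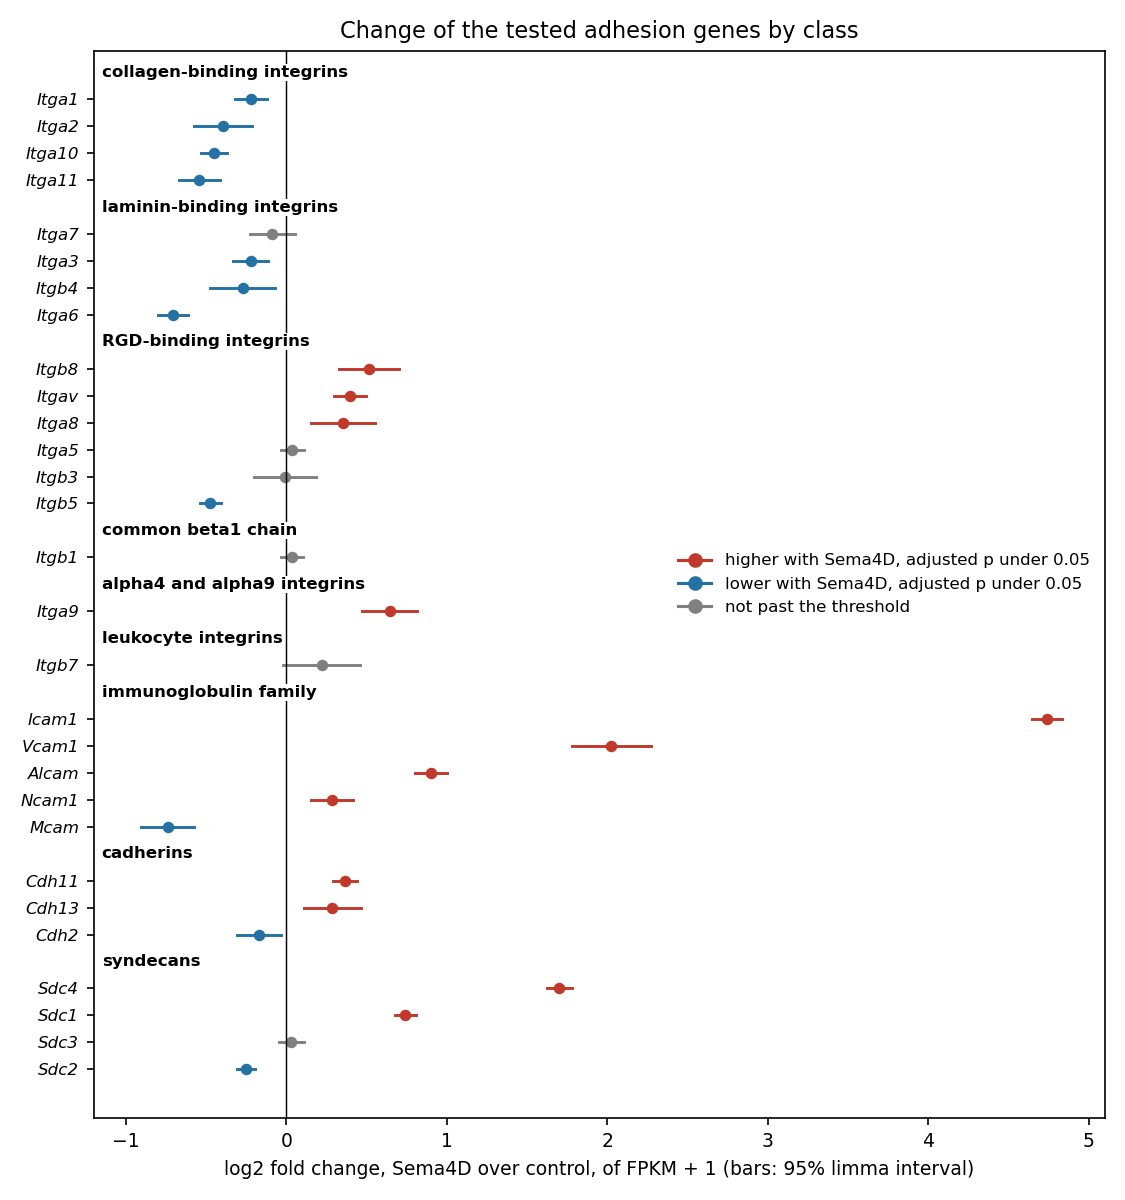
Log2 fold change of FPKM + 1, Sema4D over control, for the 29 tested adhesion genes by class (x axis; bars are 95% limma intervals, 3 libraries per group). All 4 collagen-binding chains lie left of 0, and Icam1 stands at 4.74.

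The collagen-binding class held 4 alpha chains, all of which pair with beta1. All 4 fell. Itga10, whose alpha10 chain is the typical collagen receptor of cartilage and binds type II collagen, was the most abundant of them at 20.7, 20.9 and 21.2 FPKM in Sema4D replicates 1, 2 and 3, against 28.3, 30.0 and 28.7 FPKM in control replicates 1, 2 and 3. The 3 Sema4D libraries lay within 0.5 FPKM of each other and all were below the lowest control library (log2 fold change -0.45, 95% interval -0.53 to -0.37, limma adjusted p = 1.52e-05). Itga11, a receptor for fibrillar collagens typical of mesenchymal cells, averaged 5.95 ± 0.0588 FPKM in Sema4D and 9.13 ± 0.632 FPKM in control libraries (-0.54, adjusted p = 7.5e-05). Itga2 averaged 1.66 ± 0.215 and 2.5 ± 0.0625 FPKM in Sema4D and control libraries (-0.40, adjusted p = 0.00357). Itga1, which prefers basement membrane collagen, fell least, with 6.78 ± 0.185 FPKM in Sema4D and 8.05 ± 0.0972 FPKM in control libraries (-0.22, adjusted p = 0.00373). By the ratio of mean FPKM the control level was 1.53 times the Sema4D level for Itga11, 1.5 for Itga2, 1.38 for Itga10 and 1.19 for Itga1.

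Of 4 laminin-binding chains 3 fell (75%, against 22.2% of all tested genes). Itga6 (chromosome 2, 71786886 to 71858427 in mm10), whose alpha6 chain pairs with beta1 or beta4, had 10.2, 10.7 and 10.4 FPKM in Sema4D replicates 1, 2 and 3, against 17.4, 17.3 and 18.4 FPKM in control replicates 1, 2 and 3. The groups were far apart compared with their spread (log2 fold change -0.71, 95% interval -0.80 to -0.61, limma adjusted p = 2.39e-06). Itga3, the chain of a second laminin receptor, fell to 9.09 ± 0.267 FPKM in Sema4D libraries, against 10.8 ± 0.488 FPKM in control libraries (-0.22, adjusted p = 0.00513). Itga7, the laminin receptor chain of muscle, was at 3.32 ± 0.18 FPKM with Sema4D and 3.58 ± 0.133 FPKM in control libraries and did not pass (-0.09, 95% interval -0.22 to 0.05, adjusted p = 0.275). Itgb4, the epithelial partner of alpha6, was close to the minimum at 0.883 ± 0.0386 FPKM with Sema4D and 1.28 ± 0.174 FPKM in control libraries, and its call was narrow (-0.27, limma adjusted p = 0.0345). That call was lost without Sema4D replicate 1, 2 or 3 (limma adjusted p = 0.0705, 0.0541 and 0.0723) and without control replicate 1 or 2 (0.079 and 0.0959), and over all alternatives it ran from 0.00976 to 0.0959.

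The RGD-binding chains moved in both directions. Itgb5, the vitronectin receptor chain that pairs with alphav, was the most abundant of the 8, at 89.0, 89.7 and 89.5 FPKM in Sema4D replicates 1, 2 and 3, against 120.9, 127 and 125 FPKM in control replicates 1, 2 and 3. It was lower in all 3 Sema4D libraries than in any control library (log2 fold change -0.47, 95% interval -0.54 to -0.41, limma adjusted p = 3.1e-06). Its partner Itgav rose to 39.4 ± 1.65 FPKM in Sema4D libraries, against 29.6 ± 1.18 FPKM in control libraries (0.40, adjusted p = 0.000118). Itgb8, another partner of alphav, whose dimer binds and activates latent TGF-beta, rose to 3.67 ± 0.0736 FPKM with Sema4D, against 2.28 ± 0.336 FPKM in control libraries (0.52, adjusted p = 0.00102). Itga8, a receptor chain for nephronectin, rose to 1.29 ± 0.137 FPKM in Sema4D libraries, against 0.792 ± 0.0607 FPKM in control libraries (0.35, adjusted p = 0.00983). Per length, Itgb5 stood above Itgav and Itgb8 in both groups.

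Itga5, the chain of the fibronectin receptor, was the most abundant alpha chain in both groups and was at 61.0 ± 1.35 FPKM in Sema4D and 59.4 ± 1.45 FPKM in control libraries (0.04, 95% interval -0.04 to 0.11, limma adjusted p = 0.359). Itgb3, the beta3 chain of osteoclasts and platelets, was at 2.1 ± 0.147 and 2.12 ± 0.265 FPKM in Sema4D and control libraries (-0.01, interval -0.20 to 0.19, adjusted p = 0.952). The epithelial chain Itgb6 lay between 0.013 and 0.0889 FPKM over the 6 libraries. Itga2b, the platelet fibrinogen receptor chain, was at 0.715 ± 0.0683 FPKM with Sema4D and 0.808 ± 0.133 FPKM in control libraries, under the minimum.

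The common beta1 chain, which serves the collagen and laminin receptors and the fibronectin receptor, was the most abundant integrin transcript. Itgb1 had 204, 218 and 207 FPKM in Sema4D replicates 1, 2 and 3, against 206, 203 and 203 FPKM in control replicates 1, 2 and 3. The groups overlapped, and the 95% interval of the log2 fold change ran from -0.03 to 0.11 (limma adjusted p = 0.363). The called falls among its collagen- and laminin-binding alpha partners ran from -0.71 (Itga6) to -0.22 (Itga1 and Itga3).

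**Figure D2:**
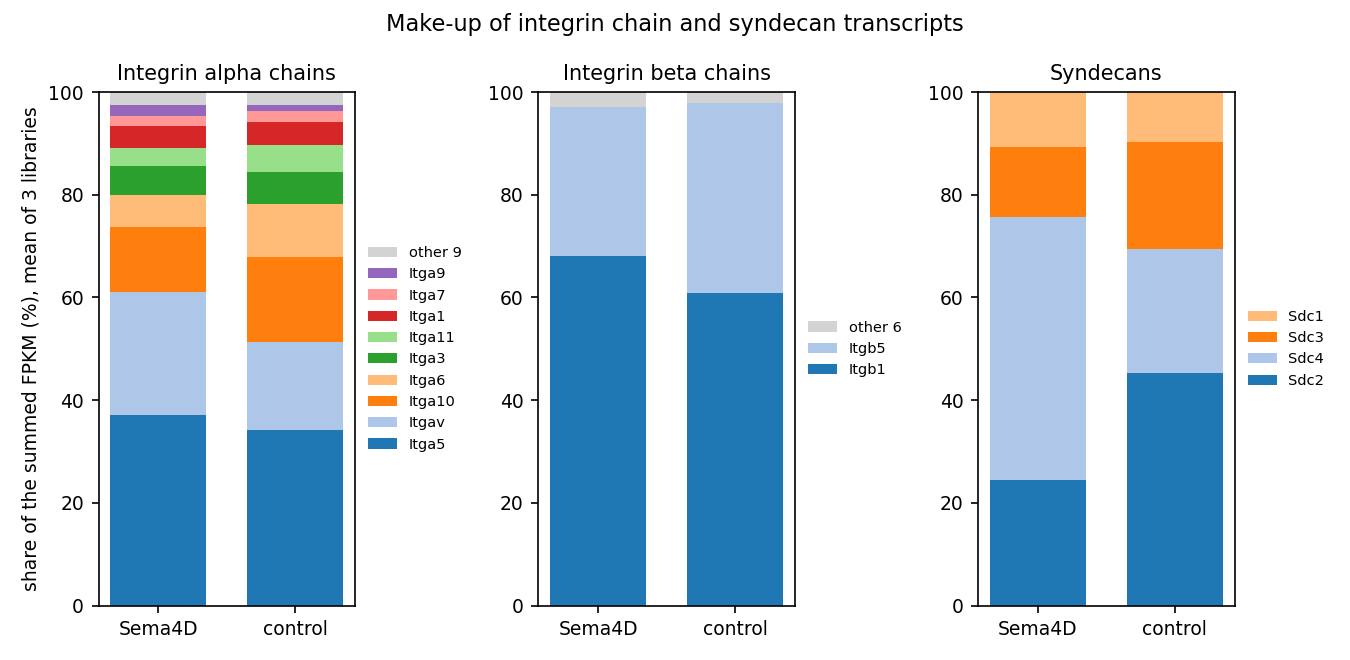
Share (%) of the summed FPKM of 18 integrin alpha chains, 8 beta chains and 4 syndecans, as the mean of 3 libraries for Sema4D (left bar of each panel) and control (right bar). The Itgav share of alpha chains is 23.9% with Sema4D and 17.1% in control, and the Sdc4 share of syndecans is 51.1% and 24.1%.

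Per length, alpha chain transcripts summed to 164 to 165 FPKM in Sema4D libraries and 172 to 175 FPKM in control libraries. RGD-binding chains made up 62% to 62.4% of that sum with Sema4D and 51.6% to 52.7% in control libraries. Collagen-binding chains made up 21.3% to 21.6% with Sema4D and 27.9% to 28.1% in control libraries, and laminin-binding chains 13.7% to 14% and 18.1% to 19%. Beta chains summed to 303 to 316 FPKM with Sema4D and 335 to 338 FPKM in control libraries, of which Itgb5 held 28.3% to 29.4% and 36.2% to 37.7%, as the bars of chain make-up show. These shares are a description and carry no test.

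Among the chains that bind VCAM-type and matrix ligands, Itga9, whose alpha9beta1 dimer binds tenascin-C, osteopontin and VCAM-1, had 3.87, 3.21 and 3.41 FPKM in Sema4D replicates 1, 2 and 3, against 1.84, 1.94 and 1.84 FPKM in control replicates 1, 2 and 3. All Sema4D libraries lay above all control libraries (log2 fold change 0.64, 95% interval 0.47 to 0.81, limma adjusted p = 0.000154). The related Itga4, typical of lymphocytes, stayed between 0.0922 and 0.169 FPKM over the 6 libraries. Among the tested adhesion genes, long noncoding RNA genes of the RefSeq annotation overlap Itga9, Itga2, Itga7, Itga8, Itgb4, Alcam, Ncam1 and Cdh13, and protein-coding genes overlap Itga1 (Pelo), Itga7 (Mettl7b) and Itgb4 (Galk1). Without the strand setting, the reads of such partners cannot be told apart.

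Of the 7 leukocyte chains 6 lay under the minimum. Itgal, Itgam, Itgax, Itgad and Itgae lay between 0 and 0.338 FPKM in all 6 libraries, and Itgax was listed at 0 in every Sema4D library. Itgb7, a lymphocyte chain, had 1.92, 1.57 and 1.39 FPKM in Sema4D replicates 1, 2 and 3, against 1.05, 1.28 and 1.43 FPKM in control replicates 1, 2 and 3. The groups overlapped and it did not pass (0.22, 95% interval -0.02 to 0.46, limma adjusted p = 0.118).

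Itgb2, the beta2 chain shared by the leukocyte-specific dimers, had 1.19, 0.831 and 0.842 FPKM in Sema4D replicates 1, 2 and 3, against 0.223, 0.323 and 0.269 FPKM in control replicates 1, 2 and 3. Every Sema4D library was above every control library, but the mean over all 6 was under 1 FPKM, so Itgb2 was not among the genes tested. With no filter on low values its log2 fold change was 0.62 and its limma adjusted p 0.00119. Its alpha partners Itgal and Itgam ranged from 0.0593 to 0.155 and from 0.186 to 0.338 FPKM with Sema4D, and from 0 to 0.0912 and from 0.0826 to 0.192 FPKM in control libraries.

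The 10 leukocyte markers summed to 22.4 to 25.4 FPKM in Sema4D and 24.9 to 33 FPKM in control libraries. Of these 10, 6 had a mean under 1 FPKM. The pan-leukocyte gene Ptprc lay between 0.0719 and 0.119 FPKM with Sema4D and between 0.0595 and 0.127 FPKM in control libraries. Of the 4 tested markers, Lyz2, Tyrobp and Laptm5 fell and Cd68 did not pass. Tyrobp, at 0.636 FPKM with Sema4D and 1.68 FPKM in control libraries, and Laptm5, at 0.777 and 1.3 FPKM, reached the minimum only through the control group. Among the untested markers Adgre1, Fcer1g and Coro1a were higher in all 3 Sema4D libraries than in any control library. The part of such cells in the Itgb2 values was not tested.

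Of 9 immunoglobulin family genes 5 were tested, of which 4 rose and 1 fell (80% and 20%, against 24.5% and 22.2% of all tested genes). Icam1, the counter-receptor of the leukocyte beta2 integrins, had 299.6, 275 and 277 FPKM in Sema4D replicates 1, 2 and 3, against 9.94, 9.62 and 9.46 FPKM in control replicates 1, 2 and 3. Its mean was 29.4 times the control mean (log2 fold change 4.74, SE 0.04, 95% interval 4.65 to 4.83, limma adjusted p = 2e-11). Vcam1, the ligand of alpha4beta1 and alpha9beta1, had 26.6, 26.0 and 23.9 FPKM in Sema4D replicates 1, 2 and 3, against 6.84, 4.91 and 4.93 FPKM in control replicates 1, 2 and 3. Control replicate 1 stood above the other control libraries and still at less than any Sema4D library (ratio of means 4.58, log2 fold change 2.03, 95% interval 1.78 to 2.27, adjusted p = 1.38e-06). Vcam1 lies on chromosome 3 at 116110020 to 116129688 (mm10, RefSeq). For both ligands the distance between the groups was larger than the replicate spread, as the plot of per-library levels shows.

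**Figure D3:**
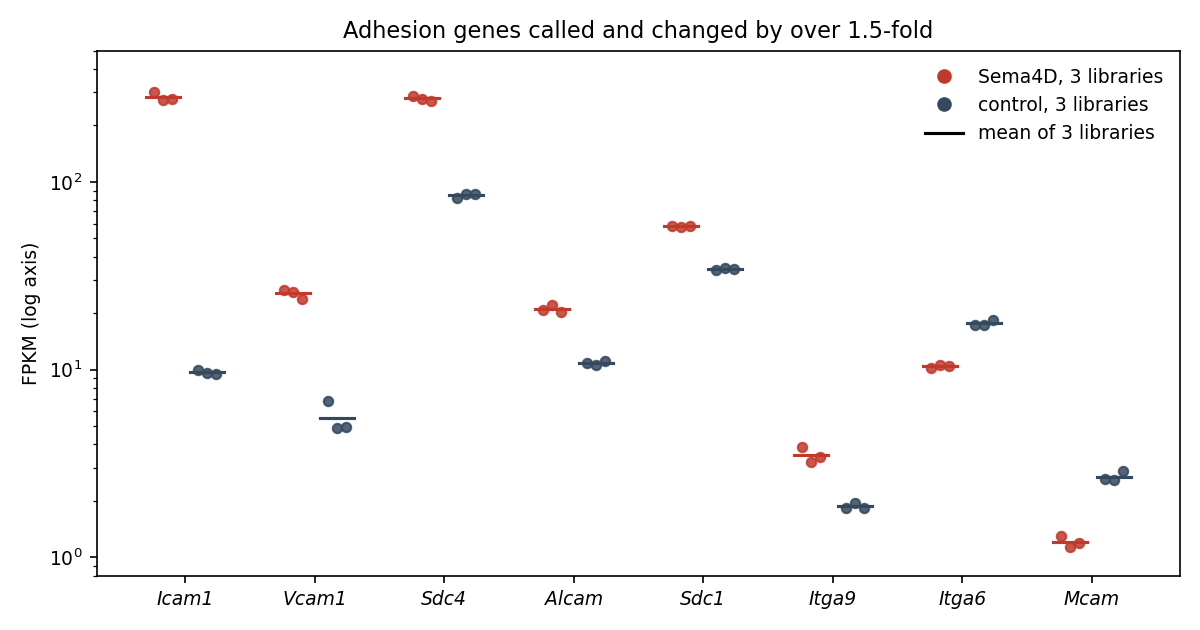
FPKM (log axis) in each library for the 8 adhesion genes called and changed by over 1.5-fold on the log2(FPKM + 1) scale. Sema4D is left of control for each gene, with a line at the mean of 3 libraries. Icam1 and Sdc4 reach 284 and 279 FPKM with Sema4D, against 9.67 and 85 FPKM in control.

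Alcam, which joins cells through itself or through the T cell receptor CD6, had 20.8, 22.3 and 20.4 FPKM in Sema4D replicates 1, 2 and 3, against 10.8, 10.6 and 11.1 FPKM in control replicates 1, 2 and 3. The ratio of means was 1.95 (log2 fold change 0.90, 95% interval 0.80 to 1.0, limma adjusted p = 8.31e-07). Ncam1, a homophilic molecule of neural and mesenchymal condensations, rose to 10 ± 0.321 FPKM with Sema4D, against 8.05 ± 0.607 FPKM in control libraries (0.29, adjusted p = 0.0038).

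Mcam, a marker of pericytes and endothelium, was the family's fall, with 1.3, 1.13 and 1.2 FPKM in Sema4D replicates 1, 2 and 3, against 2.62, 2.58 and 2.88 FPKM in control replicates 1, 2 and 3 (log2 fold change -0.74, 95% interval -0.91 to -0.57, limma adjusted p = 6.34e-05). No Sema4D library reached the lowest control value. The 8 pericyte and smooth muscle markers summed to 189 to 196 FPKM with Sema4D and 183 to 197 FPKM in control libraries. Of the 4 tested among them, Acta2 rose to 60.6 ± 1.49 FPKM in Sema4D, against 33.2 ± 1.55 FPKM in control libraries. Cspg4 and Tagln fell, and Pdgfrb did not pass. Among the untested ones, Myh11 was at 0.116 FPKM with Sema4D and 0.376 FPKM in control libraries, and Cnn1 at 0.423 and 1.14 FPKM. Both were lower with no overlap, while the groups overlapped for Rgs5 and Notch3. The 10 endothelial markers summed to 29.5 to 31.2 FPKM and 24.7 to 26.2 FPKM in Sema4D and control libraries, mostly from Eng, which rose, at 27.7 ± 0.728 and 22.7 ± 0.658 FPKM. Egfl7, the other tested endothelial marker, fell to 2.01 FPKM with Sema4D, against 2.72 FPKM in control libraries (limma adjusted p = 0.0107), and the untested Flt1 was at 0.407 FPKM with Sema4D and 0.0303 FPKM in control libraries, with no overlap. The defining endothelial genes Pecam1 and Kdr reached at most 0.148 and 0.0341 FPKM in any library. The part of such cells in the Mcam values was not tested.

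Icam1, Icam4 and Icam5 lie side by side on chromosome 9 in mm10 (GRCm38), at 21015940 to 21028814, 21029432 to 21030596 and 21032038 to 21039036, with 617 bases between Icam1 and Icam4 and 1441 bases between Icam4 and Icam5. The neighbours did not share the level of Icam1. Icam5, the telencephalic member, had 1.12, 1.16 and 0.877 FPKM in Sema4D replicates 1, 2 and 3, against 0.827, 0.866 and 0.623 FPKM in control replicates 1, 2 and 3. Each Sema4D library was just above every control library, and with no filter on low values its limma adjusted p was 0.095. Icam4, the erythroid member, had 0.64, 0.343 and 0.0947 FPKM in Sema4D replicates 1, 2 and 3, against 0.426, 0.33 and 0.343 FPKM in control replicates 1, 2 and 3, so its groups overlapped. Icam2, of endothelium and platelets, was listed at 0 in 4 of the 6 libraries and at 0.0597 and 0.0615 FPKM in Sema4D replicate 1 and control replicate 2. The neural gene L1cam was at 0.986 ± 0.0178 FPKM in Sema4D and 0.934 ± 0.0887 FPKM in control libraries, and was under the minimum.

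Upstream sequence is shown for the strongest rises by log2 fold change that the RefSeq promoter table (GRCm38.p6) holds, since Icam1 is a textbook target of the transcription factor NF-kappaB. Itga9, the next by that measure at 0.64, is not printed. The table held 27 of the 43 genes. Each sequence is the 250 bases before the RefSeq start, 5′ to 3′ on the gene's strand. Capitals mark matches, on either strand, to the NF-kappaB consensus or to GGAATTTCC, a shorter NF-kappaB form chosen with the known site of human ICAM1 in mind, which can overlap the consensus. TGANTCA, the AP-1 motif, was searched in the same way.
Icam1 (chr9:21015690-21015939, plus strand): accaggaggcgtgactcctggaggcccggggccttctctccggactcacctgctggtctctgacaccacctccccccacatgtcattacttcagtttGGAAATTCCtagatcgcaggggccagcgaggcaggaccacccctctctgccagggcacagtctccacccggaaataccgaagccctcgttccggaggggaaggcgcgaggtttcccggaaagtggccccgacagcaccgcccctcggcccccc
Sdc4 (chr2:164443189-164443438, minus strand): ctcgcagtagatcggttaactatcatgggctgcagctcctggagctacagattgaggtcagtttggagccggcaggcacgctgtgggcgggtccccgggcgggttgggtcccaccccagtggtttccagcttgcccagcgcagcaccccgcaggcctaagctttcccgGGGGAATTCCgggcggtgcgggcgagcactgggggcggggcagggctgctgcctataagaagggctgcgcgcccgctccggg
Alcam (chr16:52453082-52453331, minus strand): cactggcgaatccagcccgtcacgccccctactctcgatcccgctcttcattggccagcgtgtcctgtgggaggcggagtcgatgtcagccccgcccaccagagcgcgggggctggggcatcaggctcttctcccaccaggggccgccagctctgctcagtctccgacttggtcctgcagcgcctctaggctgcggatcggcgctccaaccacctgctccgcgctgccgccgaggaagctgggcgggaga
Sdc1 (chr12:8771146-8771395, plus strand): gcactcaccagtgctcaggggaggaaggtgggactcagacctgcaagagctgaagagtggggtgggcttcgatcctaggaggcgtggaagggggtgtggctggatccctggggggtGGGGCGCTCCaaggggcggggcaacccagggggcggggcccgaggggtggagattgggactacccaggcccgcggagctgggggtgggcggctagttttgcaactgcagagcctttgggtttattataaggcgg

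The Icam1 match to GGAATTTCC, read on the opposite strand, lay 153 to 145 bases before the start, and 0.286% of 32851 promoter windows of the same length held one. Sdc4 and Sdc1 each held 1 match to the NF-kappaB consensus, 82 to 73 and 134 to 125 bases before the start, against 7.25% of all windows. They were the 2 of 27 adhesion genes in the table with a consensus match, a share close to that of all windows. Alcam held none of the 3 motifs. Neither did Itga9, Itgav, Itgb8 and Itga8, the other genes called higher among the 8 such genes that the table held. The AP-1 motif was in 6.75% of all windows and among these adhesion genes was found for Itgax alone, which was listed at 0 in 5 of 6 libraries. A match shows only that these letters stand in the window.

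Of 4 cadherins 3 were tested. Cdh11, the mesenchymal cadherin of synovium and bone-forming cells, was the most abundant at 103, 107 and 104 FPKM in Sema4D replicates 1, 2 and 3, against 83.9, 80.4 and 78.6 FPKM in control replicates 1, 2 and 3. The groups did not overlap (log2 fold change 0.36, 95% interval 0.29 to 0.44, limma adjusted p = 3.71e-05). Cdh13, a cadherin held by a lipid anchor, rose to 7.41 ± 0.738 FPKM with Sema4D, against 5.88 ± 0.457 FPKM in control libraries (0.29, limma adjusted p = 0.0162). The Cdh13 call was lost without Sema4D replicate 1 (adjusted p = 0.0585) or control replicate 1 (0.0562), and over all alternatives it ran from 0.00771 to 0.0585.

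Cdh2, the N-cadherin of precartilage condensation, was slightly lower, at 3.93 ± 0.222 FPKM with Sema4D and 4.54 ± 0.177 FPKM in control libraries (log2 fold change -0.17, limma adjusted p = 0.043). Its call was lost without Sema4D replicate 1 or 3 (adjusted p = 0.118 and 0.114), without control replicate 1, 2 or 3 (0.116, 0.0711 and 0.0761) and with no filter on low values (0.0758), and over all alternatives it ran from 0.0112 to 0.118. Cdh5, the endothelial cadherin, reached at most 0.063 FPKM and was listed at 0 in 1 library of each group.

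All 4 syndecans were abundant. Sdc4, the syndecan of focal adhesions (chromosome 2, 164424247 to 164443188 in mm10), had 288, 277 and 271 FPKM in Sema4D replicates 1, 2 and 3, against 82.0, 86.5 and 86.5 FPKM in control replicates 1, 2 and 3. It was 3.28 times the control mean (log2 fold change 1.70, SE 0.03, 95% interval 1.62 to 1.78, limma adjusted p = 4.62e-09). Sdc1 had 58.3, 57.9 and 58.5 FPKM in Sema4D replicates 1, 2 and 3, against 34.1, 34.6 and 34.4 FPKM in control replicates 1, 2 and 3, with less than 1 FPKM between replicates (ratio of means 1.69, log2 fold change 0.74, 95% interval 0.68 to 0.81, adjusted p = 1.6e-07).

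Sdc2, the mesenchymal syndecan, fell to 134 ± 1.96 FPKM with Sema4D, against 159.7 ± 1.3 FPKM in control libraries (-0.25, limma adjusted p = 6.94e-05). Sdc3 was at 74.9 ± 2.42 FPKM in Sema4D and 73.3 ± 1.86 FPKM in control libraries and did not pass (0.03, 95% interval -0.05 to 0.11, adjusted p = 0.49). The 4 genes summed to 542 to 553 FPKM with Sema4D and 346 to 357 FPKM in control libraries. Sdc4 made up 49.9% to 52.2% of that sum with Sema4D and 23.7% to 24.5% in control libraries, and Sdc2 made up 23.8% to 25% and 45% to 45.9%.

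Set in order of level, the 5 highest adhesion genes with Sema4D were Icam1, Sdc4, Itgb1, Sdc2 and Cdh11, and those in control libraries were Itgb1, Sdc2, Itgb5, Sdc4 and Cdh11. With Sema4D the Icam1 and Sdc4 values overlapped, at 275 to 299.6 FPKM and 271 to 288 FPKM, and all of these were above the highest Itgb1 value of 218 FPKM. In control libraries Sdc4 and Cdh11 also overlapped, at 82.0 to 86.5 and 78.6 to 83.9 FPKM. Icam1 was 14th of 43 in control libraries and 1st with Sema4D.

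**Figure D4:**
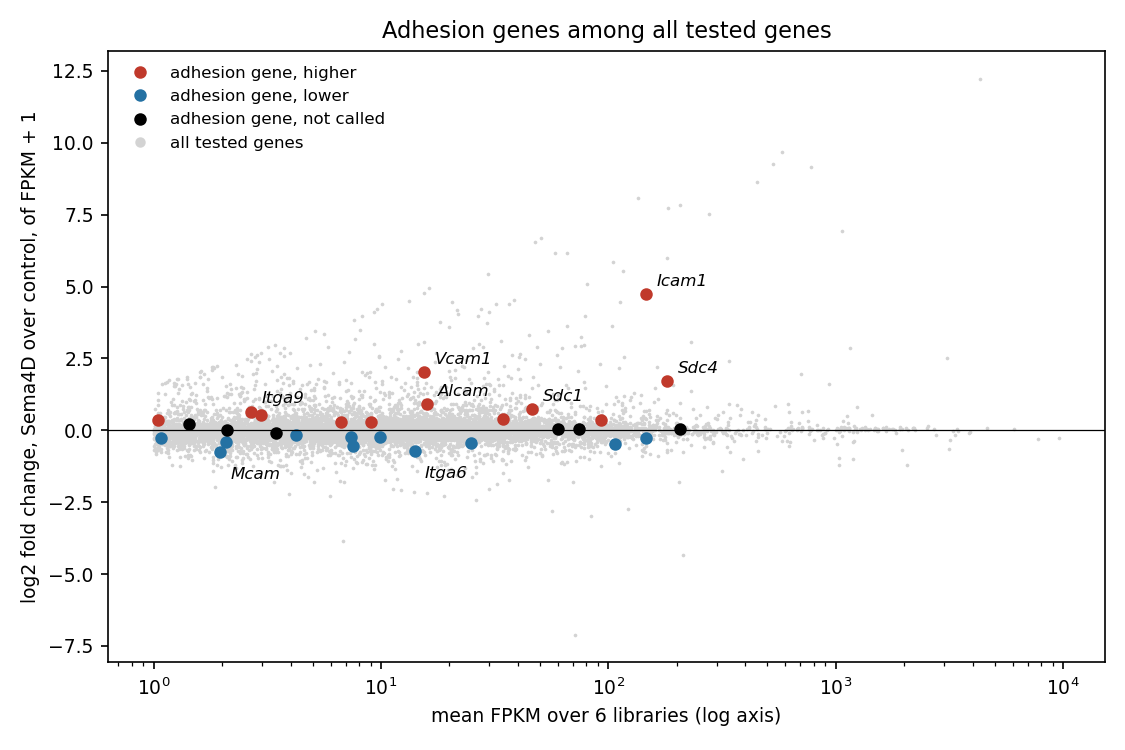
Log2 fold change of FPKM + 1 (Sema4D over control) against mean FPKM over 6 libraries (log axis) for all 11603 tested genes in grey and the 29 tested adhesion genes in colour, with the 8 changed by over 1.5-fold named. Icam1 lies at 4.74 among the large rises, while most adhesion genes lie near 0.

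Of 32 listed integrin adaptors, kinases and linker proteins 27 were tested, of which 8 rose (29.6%, against 24.5% of all tested genes), 12 fell (44.4%, against 22.2%) and 7 did not pass (median log2 fold change 0.03). Bcar1, a scaffold of focal adhesions, rose to 34.7 ± 1.62 FPKM with Sema4D, against 22.5 ± 1.12 FPKM in control libraries (0.61, limma adjusted p = 1.74e-05), and was the list's rise over 1.5-fold. Parva, which links integrin-linked kinase to actin (0.38, adjusted p = 2.37e-05), and the kinase gene Src (0.32, adjusted p = 0.000306) had the next smallest p among rises. Tns2, a tensin that binds beta chain tails, fell to 51.2 ± 1.9 FPKM with Sema4D, against 83.6 ± 4.31 FPKM in control libraries (-0.70, adjusted p = 4.67e-06). Nedd9, a relative of Bcar1 (-0.56, adjusted p = 3.49e-06), and the clathrin adaptor gene Dab2 (-0.41, adjusted p = 5.78e-06) also fell.

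Of 32 listed matrix and matricellular ligands of integrins 25 were tested, of which 9 rose and 9 fell (36% each, against 24.5% and 22.2% of all tested genes) and 7 did not pass (median 0.00). Spp1, whose product osteopontin is bound by RGD integrins and by alpha9beta1, rose (0.97, limma adjusted p = 1.56e-07), as did Fbn1, the fibrillin with an RGD site (0.57, adjusted p = 2.76e-06), and the laminin chain gene Lamb1 (0.42, adjusted p = 2.1e-05). Ctgf (-0.99, adjusted p = 4.48e-08), Thbs1 (-1.0, adjusted p = 5.22e-08) and Cyr61 (-1.0, adjusted p = 7.88e-08), matricellular proteins, fell. Fn1, the fibronectin gene, was at 3427 ± 93.6 FPKM with Sema4D and 3511 ± 62.3 FPKM in control libraries and did not pass (adjusted p = 0.356).

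Of 4 tested catenins and cadherin partners, Ctnna1 (-0.18, limma adjusted p = 0.000752) and Jup (-0.47, adjusted p = 0.000524) fell, none rose, and Ctnnb1 and Ctnnd1 did not pass. Of 4 tested syndecan partners Tiam1, an activator of the GTPase Rac, rose (0.43, adjusted p = 0.00152), the scaffold gene Cask fell (-0.19, adjusted p = 0.0099) and Sdcbp and Gipc1 did not pass. Of all tested genes 24.5% rose and 22.2% fell, near the 25% and 25% of the syndecan partners.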

How the data were processed

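RNA-seq values of 6 libraries were analysed, 3 Sema4D and 3 control, grouped by their titles. The authors deposited FPKM. The submitters' processing notes name the build mm10 and the tools Cufflinks 2.2.1, TopHat2 2.0.13, SAMtools 0.1.19 and Bowtie2 2.2.3, without saying what each did. Annotation, strand setting, filters and scaling are not given in the sources used here. Since FPKM are no counts, count models were not used. Depth came from 1681 genes with 1 GENCODE M21 transcript over 2000 bases: 75.9% to 83.7% of the lowest of these values were whole fragments within 0.15, too few to recover counts, and 1 fragment on 1 kilobase was worth 0.06 to 0.0799 FPKM. An exact 0 can be a failed estimate. In each pair of libraries 0.112% to 0.293% of tested genes had equal values, so none was a copy.

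log2(FPKM + 1) of genes whose mean reached 1 FPKM was fitted with limma 3.58.1 (eBayes with a trend, two-sided, no replicate block) in R 4.3.3. The fit was also run on simulated data in which far fewer genes changed than were called here. That run does not measure the error of these calls. Benjamini-Hochberg adjustment ran over all tested genes. Figures and depth used Python 3.11.15, numpy 2.4.6, pandas 2.3.3 and matplotlib 3.10.9. Positions and upstream sequences are RefSeq's on GRCm38.p6, the assembly of mm10. The members, classes and lists were chosen with earlier results of these data known. Named with every library were called genes past 1.5-fold and the most abundant gene of each class, and from partner lists the 3 smallest p in each direction. Other genes, among them Itgb2, Icam4 and Icam5 with every library, were chosen after their values were seen.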

Additional observations from a re-analysis of the deposited data

How the results depend on the processing

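Over the 13 alternatives the adhesion genes called higher with Sema4D numbered 9 to 13 and those called lower 7 to 11. With a mean of at least 5 FPKM, 19 adhesion genes were tested, and 9 were higher and 7 lower, since fewer genes entered. Leaving out 1 library at a time gave 11 to 12 higher and 9 to 10 lower. The 23 calls were refitted 292 times in all: 277 kept the call, 15 lost it, for Itgb4, Cdh2 or Cdh13, and 0 reversed. Apart from the replicate block, the values are given beside those genes. Over all genes, 52.4% of calls were higher (2841 higher and 2581 lower), but 38.8% after quantile normalization (2167 and 3415) and 36% after upper quartile scaling (2080 and 3691), while the adhesion genes kept counts of 12 and 11 under both. With the replicate block the counts were 12 and 9, and Itgb4 (adjusted p = 0.0551) and Cdh2 (0.0824) lost their calls. Replicate numbers showed no clear pairing of the libraries. Deviations from the group means correlated at 0.14, -0.08 and -0.05 for numbers 1, 2 and 3, and only Sema4D replicate 1 correlated best with its own number. With means of 3 libraries per group, such correlations cannot decide whether libraries were paired. Depth limits genes under 1 FPKM most: 3 fragments on 1 kilobase are worth 0.18 to 0.24 FPKM.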

Other observations

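Further adhesion families were taken from the same limma fit across all genes. They were chosen by symbol after the data were seen, and their counts stand against 24.5% of all tested genes called higher and 22.2% called lower. Of 10 tested genes of the ADAM family, some of which encode proteases that shed surface proteins, 4 rose and 5 fell. Among the falls, Adam33, at 0.933 FPKM with Sema4D and 2.26 FPKM in control libraries, reached the minimum only through the control group. Adam17, a sheddase whose known substrates include ICAM-type and VCAM-type proteins and syndecans, rose to 46.7 ± 0.844 FPKM with Sema4D, against 19.3 ± 0.569 FPKM in control libraries (mean ± SD, n = 3 per group; log2 fold change 1.23, limma adjusted p = 3.21e-08). Adam10, a sheddase of cadherins, was at 29.3 ± 0.507 and 27.1 ± 0.888 FPKM in Sema4D and control libraries (0.11, adjusted p = 0.0358). Gja1, the connexin 43 gene, rose to 163.6 ± 1.12 FPKM with Sema4D, against 93.4 ± 3.7 FPKM in control libraries (0.80, adjusted p = 2.98e-07). Of the 3 tested connexins it alone rose. Gjc3 fell to 0.594 FPKM with Sema4D, against 1.68 FPKM in control libraries (-0.75, limma adjusted p = 0.000126), and Gjc1 did not pass. The 2 tested junctional adhesion molecules fell, and of 5 tested glypicans 1 rose and 2 fell. The 1 tested claudin and 1 tested selectin ligand gene rose, and the 1 further tested cadherin fell.

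Of 19 tested tetraspanins, membrane partners of integrins, 4 rose and 10 fell (median log2 fold change -0.21). Tspan18 fell to 1.65 ± 0.136 FPKM with Sema4D, against 6.42 ± 0.326 FPKM in control libraries (-1.49, limma adjusted p = 4.55e-07), and Tspan6 to 40.8 ± 1.35 FPKM, against 73.6 ± 2.04 FPKM (-0.83, adjusted p = 3.99e-07). Cd63 rose (0.24, adjusted p = 3.77e-05). Of 5 tested nectins and nectin-like genes 3 rose, 1 fell (Pvrl3, -0.20, limma adjusted p = 0.0352) and 1 did not pass. The rises were led by the poliovirus receptor homologue gene Pvr at 25.1 ± 0.368 FPKM in Sema4D and 8.22 ± 0.602 FPKM in control libraries (1.5, adjusted p = 1.05e-07). Of 28 tested protocadherins 4 rose, 2 fell and 22 did not pass. Of these, Pcdh1, at 2.56 FPKM with Sema4D and 0.728 FPKM in control libraries, and Pcdhb14, at 0.969 and 1.4 FPKM, reached the minimum only through the group where each was higher. Itgbl1, an integrin beta-like secreted protein gene that the symbol rule leaves out, had 17.8, 18.1 and 18.2 FPKM in Sema4D replicates 1, 2 and 3, against 36.1, 36.1 and 38.0 FPKM in control replicates 1, 2 and 3 (-0.99, adjusted p = 1.3e-07).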
